A study of Homo sapiens with 9 samples.

Results

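The hairpins described here are hsa-mir-374a, hsa-mir-545, hsa-mir-374b, hsa-mir-421 and hsa-mir-374c, 5 of the 1485 rows of the deposited count table, chosen by name as the miRNA hairpins of the FTX locus on the X chromosome. Small RNA was sequenced in 9 libraries from 2 human cell lines transfected with siRNAs, to ask which miRNAs change when ERH is depleted. HEK293E, which derives from human embryonic kidney cells, received siGFP, siControl or siERH-3 (replicates 1 and 2 of each) or siERH-5 (replicate 2 only). K562, a leukaemia line with erythroid features, received siGFP or siERH-5 in 1 library each. All cells were transfected with an siRNA, HEK293E by lipofection and K562 by electroporation with harvest after a different time, and no untransfected library was used here. siGFP and siControl were pooled as control (4 HEK293E libraries), and siERH-3 and siERH-5 as siERH (3 HEK293E libraries). The labels give the replicate numbers as experimental groups, but nothing in them says that replicates were separate cultures. The p-values therefore measure the spread between these libraries, which may be technical.

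A primary miRNA transcript folds into hairpins that the Microprocessor, made of the nuclease DROSHA and its partner DGCR8, cuts out in the nucleus. DICER then trims each hairpin to a duplex whose arms are the mature miRNAs, and bases 2 to 8 of a mature miRNA, its seed, select target mRNAs. ERH is a small nuclear protein that binds DGCR8. FTX is a long noncoding gene of the X-inactivation centre whose introns carry 2 miRNA clusters on its own strand.

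The gene FTX (ENSG00000230590.9) spans bases 73946555 to 74293574 of chromosome X on the minus strand in GENCODE release 29 (GRCh38). Nearest its 5′ end lie hsa-mir-374a (MIR374A, ENSG00000199168.3, chromosome X, 74287286 to 74287357) and, 76 bases further along, hsa-mir-545 (MIR545, ENSG00000207820.1, 74287104 to 74287209). The second cluster follows after 68.5 kb, with hsa-mir-374b (MIR374B, ENSG00000212027.3, 74218547 to 74218618) and, 85 bases further along, hsa-mir-421 (MIR421, ENSG00000202566.4, 74218377 to 74218461). All of these are intronic: none overlaps an annotated exon, and 13 of the 18 annotated FTX transcripts span the first cluster and 7 the second. hsa-mir-374c (MIR374C, ENSG00000283534.1, 74218549 to 74218618) lies on the opposite strand, opposite hsa-mir-374b over all of its 70 bases.

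**Figure D1:**
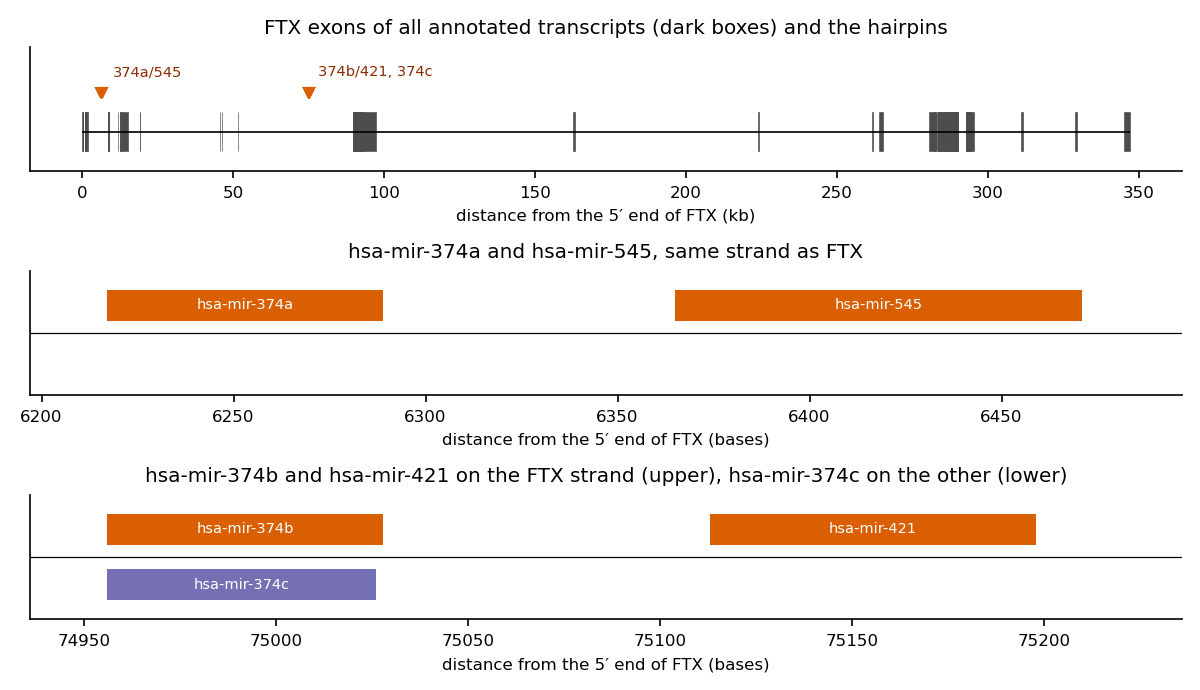
Map of the FTX locus by distance from its 5′ end, in kb in the upper panel and in bases in the 2 lower panels, with exons of all annotated transcripts as dark boxes and hairpins as coloured bars. The clusters lie 68.5 kb apart, 76 bases separate hsa-mir-374a from hsa-mir-545 and 85 bases separate hsa-mir-374b from hsa-mir-421, while hsa-mir-374c covers the same bases as hsa-mir-374b on the other strand.

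The mature sequences, from RefSeq (GRCh38.p14), show which of these miRNAs can be told apart by their reads. All 5 hairpins were matched by symbol. Capitals mark the seed.
hsa-miR-374a-3p: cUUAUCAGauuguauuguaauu
hsa-miR-374b-3p: cUUAGCAGguuguauuaucauu
hsa-miR-374c-3p: cACUUAGCagguuguauuauau
hsa-miR-374b-5p: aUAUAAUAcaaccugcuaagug
hsa-miR-374c-5p: aUAAUACAaccugcuaagugcu
hsa-miR-545-5p: uCAGUAAAuguuuauuagauga
hsa-miR-545-3p: uCAGCAAAcauuuauugugugc
hsa-miR-421: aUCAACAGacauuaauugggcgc
hsa-miR-374a-5p had no entry among these RefSeq sequences, so it is not printed and its seed was not compared. No 2 of the arms printed share a seed. hsa-miR-374a-3p and hsa-miR-374b-3p differ at 4 positions counted from the 5′ end (U5G, A9G, G17A and A19C, with the base of hsa-miR-374a-3p first), the first of which lies in the seed. hsa-miR-374b-5p and hsa-miR-374c-5p hold the same run of 20 bases, shifted so that their seeds differ, and their 3p arms share 18 bases. hsa-miR-545-3p and hsa-miR-421 share no run longer than 5 bases.

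The hairpins show how hsa-mir-374b, hsa-mir-374c and hsa-mir-374a are related. The hsa-mir-374c hairpin was the reverse complement of 70 bases of the hsa-mir-374b hairpin, and since the arms of a hairpin pair with each other, either strand gives similar arms. Mature arms are in capitals in the first pair below, and the run of 14 bases shared with hsa-miR-374b-5p is in capitals in the hsa-mir-374a hairpin.
hsa-mir-374b: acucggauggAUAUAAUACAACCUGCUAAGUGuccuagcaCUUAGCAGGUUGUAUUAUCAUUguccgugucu
hsa-mir-374c: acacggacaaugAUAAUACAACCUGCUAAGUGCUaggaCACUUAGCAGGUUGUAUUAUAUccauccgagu
hsa-mir-374a: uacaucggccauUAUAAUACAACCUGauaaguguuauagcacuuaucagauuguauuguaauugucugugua
The run in hsa-mir-374a holds the seed of hsa-miR-374b-5p. The count table gives 1 value per hairpin, so 5p and 3p arms were not separated. How reads that fit both hsa-mir-374b and hsa-mir-374c were counted is not given in the sources used here.

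The libraries held 2609929 to 3320017 hairpin counts. Levels are given as CPM, counts per 1e+06 after TMM scaling within a cell line. As a check of the lines, 5 blood-lineage hairpins (hsa-mir-451a, hsa-mir-144, hsa-mir-486-1, hsa-mir-142 and hsa-mir-223) summed to 123262 and 130027 per 1e+06 hairpin counts in K562 and to 1126 to 1637 in HEK293E. ERH mRNA is not measured by small RNA sequencing, so its depletion could not be checked here.

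In HEK293E control cells the 5 hairpins had the same order in all 4 libraries: hsa-mir-374a was highest, followed by hsa-mir-374b, hsa-mir-421, hsa-mir-545 and hsa-mir-374c. This order is one of read counts per hairpin of short fragments of 1 size range, with no scaling by length. hsa-mir-374a had 4649 ± 1546 CPM (SD, n = 4), ranking between 50 and 87 from the top of a library. hsa-mir-374c, the antisense hairpin, had 132 ± 67.5 CPM (SD, n = 4). The ranges of neighbours in this order overlapped for hsa-mir-374a (2894 to 6658 CPM) and hsa-mir-374b (1871 to 4124 CPM), and for hsa-mir-374b and hsa-mir-421 (695 to 2307 CPM). They did not overlap for hsa-mir-421 and hsa-mir-545 (286 to 490.5 CPM) or for hsa-mir-545 and hsa-mir-374c (81.7 to 230.2 CPM).

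With ERH targeted, the hairpins at the hsa-mir-374b end of the locus fell, and those of the hsa-mir-374a cluster did not pass the test. hsa-mir-374b fell to 0.602 of control, hsa-mir-421 to 0.473 and hsa-mir-374c to 0.507, while hsa-mir-374a was at 0.959 and hsa-mir-545 at 0.890. Thus 3 of 5 hairpins were lower and 0 higher by the quasi-likelihood test of edgeR, Benjamini-Hochberg adjusted over 773 hairpins with a threshold of 0.05, where 16.2% of all hairpins tested were lower and 23.8% higher. The median log2 fold change of the 5 was -0.73, and that of all 773 was -0.01. This test left out the replicate number. With the replicate number as a block, 20.6% of all hairpins were lower and the same 3 passed. The edgeR adjusted p was then 0.00704 for hsa-mir-374b, 0.00344 for hsa-mir-421 and 0.00351 for hsa-mir-374c. It was 0.775 for hsa-mir-374a and 0.203 for hsa-mir-545. In bulk RNA, fewer cells with a hairpin and less of it per cell cannot be told apart.

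hsa-mir-374b had 1871 and 2527 CPM with siGFP and 2752 and 4124 with siControl (replicates 1 and 2). It had 1747 and 1749 CPM with siERH-3 and 1591 with siERH-5. All 3 siERH libraries lay below all 4 controls, the nearest of which was siGFP replicate 1. The means were 2819 ± 947 CPM (SD, n = 4) and 1696 ± 90.7 CPM (SD, n = 3), which edgeR fitted as -0.73 ± 0.24 on the log2 scale (SE, adjusted p = 0.0304).

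hsa-mir-421, downstream of hsa-mir-374b, had 695 and 1571 CPM with siGFP and 1226 and 2307 with siControl. It had 704 and 743 CPM with siERH-3 and 608 with siERH-5. The groups overlapped, because siGFP replicate 1 lay among the siERH libraries, while the other 3 controls lay above them. The means were 1449.8 ± 676 CPM (SD, n = 4) and 685 ± 69.7 CPM (SD, n = 3), which edgeR fitted as -1.08 ± 0.33 on the log2 scale (SE, adjusted p = 0.0232).

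hsa-mir-374c had 81.7 and 120.1 CPM with siGFP, 95.5 and 230.2 with siControl, 56.3 and 74.1 with siERH-3 and 69.8 with siERH-5. All siERH libraries lay below all controls, as for hsa-mir-374b, so 2 of the 5 hairpins were separated in this way, against 19.1% of all hairpins. With edgeR its change was -0.98 ± 0.34 on the log2 scale (SE, adjusted p = 0.0390). Since the 2 hairpins share most of their arms, the table does not show whether hsa-mir-374c counts came from the antisense strand or from hsa-mir-374b reads.

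hsa-mir-374a had 2894 and 4418 CPM with siGFP and 4626 and 6658 with siControl. It had 4752 and 4425 CPM with siERH-3 and 4205 with siERH-5, all inside the range of the controls. With edgeR its change was -0.06 ± 0.24 on the log2 scale (SE, adjusted p = 0.856). hsa-mir-545, its downstream neighbour, had 286 and 425 CPM with siGFP, 287 and 490.5 with siControl, 263 and 391 with siERH-3 and 339.6 with siERH-5. It was lower in replicate 1 than in replicate 2 with each of siGFP, siControl and siERH-3, the groups overlapped, and edgeR gave -0.17 ± 0.24 on the log2 scale (SE, adjusted p = 0.612).

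**Figure D2:**
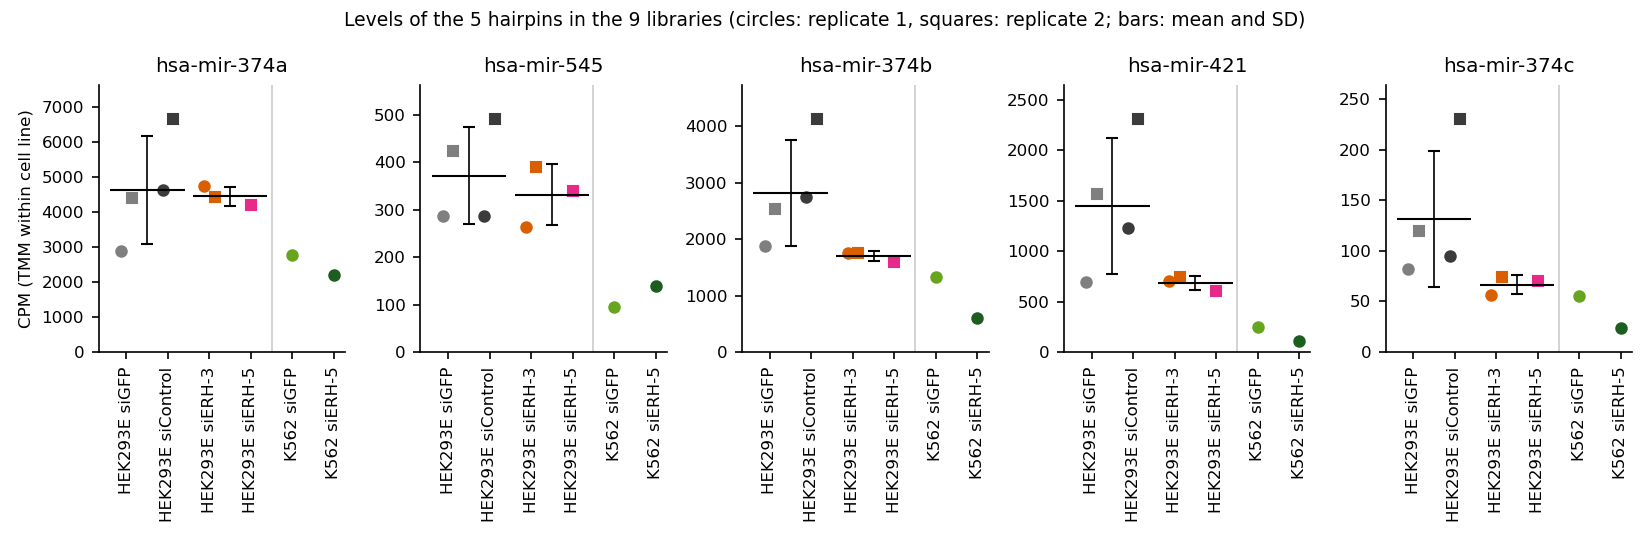
CPM of each hairpin (y axis, TMM-scaled within a cell line, from 0) by siRNA group, with circles for replicate 1, squares for replicate 2, and lines and bars for the mean and SD of the 4 control and 3 siERH libraries of HEK293E. The siERH libraries of hsa-mir-374b (1591 to 1749 CPM) and hsa-mir-374c (56.3 to 74.1 CPM) lie below all controls, and those of hsa-mir-374a (4205 to 4752 CPM) lie among them.

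Compared with the mean of the controls of their own replicate, the 3 siERH libraries differed in size of change. hsa-mir-421 was at a log2 ratio of -0.45 for siERH-3 in replicate 1, -1.38 for siERH-3 in replicate 2 and -1.67 for siERH-5 in replicate 2. hsa-mir-374b was at -0.40, -0.93 and -1.06, and hsa-mir-374c at -0.65, -1.24 and -1.33. Each of the 3 was thus below that mean in 3 of 3 libraries, least in replicate 1, where hsa-mir-421 with siERH-3 (704 CPM) was above siGFP (695 CPM). hsa-mir-374a was above the mean of its controls in replicate 1 (0.34) and below it in replicate 2 (-0.32 and -0.40), where siERH-3 (4425 CPM) and siGFP (4418 CPM) were close.

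The calls of the fit without a block rested on few libraries. Without any 1 of the siERH libraries, leaving 2, none of the 3 hairpins was called (edgeR adjusted p = 0.0572 to 0.136), while their log2 fold changes were -0.75 to -0.68 for hsa-mir-374b, -1.14 to -0.99 for hsa-mir-421 and -1.06 to -0.83 for hsa-mir-374c. The share of all hairpins called lower was then 10.1% without siERH-3 replicate 1, 9.88% without siERH-3 replicate 2 and 11.5% without siERH-5 replicate 2. Among the controls, hsa-mir-374b was not called without siControl replicate 1 (edgeR adjusted p = 0.0571), and hsa-mir-374c without siGFP replicate 2 (0.0517) or siControl replicate 2 (0.0544), the latter with a log2 fold change of -0.58. Scaled by library totals, which moved the median of all hairpins from -0.01 to 0.19, only hsa-mir-421 of the 5 passed (-0.85, edgeR adjusted p = 0.0389), where 8.67% of all hairpins were lower, and hsa-mir-374a was at 0.16. With limma on log2(RPM + 1) or log2(RPM + 10) of the deposited values 0 of the 5 passed, where 7.5% and 7.63% of all hairpins were lower.

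The control siRNAs differed at this locus in a fit with the replicate number as a block, and did not pass without it. Between siControl and siGFP, 0 of the 5 hairpins passed edgeR's quasi-likelihood test (adjusted p = 0.959 for each), as did 0 of all 730 hairpins, of which 24 had an unadjusted p under 0.05, while DESeq2 called 2 lower and 2 higher, none of them among the 5. With the replicate number as a block, 4 of the 5 were higher in siControl, where 9.86% of the hairpins tested were higher. The blocked log2 fold changes were 0.63 ± 0.11 for hsa-mir-374a (SE; edgeR adjusted p = 6.59e-07), 0.62 ± 0.11 for hsa-mir-374b (1.14e-06), 0.68 ± 0.11 for hsa-mir-421 (5.33e-07) and 0.59 ± 0.16 for hsa-mir-374c (0.00275). hsa-mir-545 was at 0.10 ± 0.13 (edgeR adjusted p = 0.653). The blocked fit has only 4 libraries, so its SE and p-values rest largely on a spread estimated over all hairpins.

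The siERH comparison moved with the choice of control. Against siGFP alone, hsa-mir-374b was at a log2 fold change of -0.39 (edgeR adjusted p = 0.167), hsa-mir-421 at -0.74 (0.118) and hsa-mir-374c at -0.61 (0.102), so that 0 of 5 passed, where 10.8% of all hairpins were lower. Against siControl alone the 3 were at -1.05, -1.40 and -1.32 and 3 of 5 passed, where 12.1% of all hairpins were lower (edgeR adjusted p = 0.00687, 0.00650 and 0.0232).

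A ratio of 2 hairpins in 1 library is the same under any factor applied to the whole library. The raw counts of hsa-mir-374a and hsa-mir-545 were therefore summed and set against the sum of hsa-mir-374b and hsa-mir-421. Of the first sum, hsa-mir-374a gave 91.0% to 96.7% across the 9 libraries. A trend on GC content, described below, is not a factor on the whole library, and the ratio was not corrected for it. The first cluster gave 1.24-fold and 1.18-fold the counts of the second with siGFP (replicates 1 and 2), and 1.23-fold and 1.11-fold with siControl. With siERH-3 it gave 2.05-fold and 1.93-fold, and with siERH-5 2.07-fold.

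The 4 control values were close to each other, and all 3 siERH values lay above them. The log2 ratio averaged 0.25 ± 0.07 for controls (SD, n = 4) and 1.01 ± 0.05 for siERH (SD, n = 3). The groups differed by 0.76, with a two-sided p = 0.0286 in an exact permutation test of the 35 splits. That is the smallest p that 35 splits allow. Adjusted over the 4 ratios tested, it was 0.114, so this family of tests could not reach 0.05 for a single ratio. The difference was 0.73 within replicate 1 and 0.80 within replicate 2. siControl and siGFP differed in this ratio by -0.0051 in replicate 1 and -0.09 in replicate 2, unlike in the levels of the single hairpins. For comparison, 34.3% of 105 pairs of neighbouring hairpins, described below, had a ratio that did not overlap between siERH and control. The upper quartile of the size of their difference was 0.78 on the log2 scale. These are pairs of single hairpins within 10 kb, not sums of clusters.

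Within each cluster, the ratio of the neighbours overlapped between siERH and the pooled controls. hsa-mir-374a gave 10.1 and 10.4 times the counts of hsa-mir-545 with siGFP, 16.1 and 13.6 times with siControl, 18.1 and 11.3 times with siERH-3 and 12.4 times with siERH-5. The mean log2 ratio differed by 0.15 between siERH and control, less than the SD of either group (exact permutation test, two-sided p = 0.571, adjusted over the 4 ratios 0.571). Both siGFP values were below those of the other 5 HEK293E libraries, and siControl was above siGFP by 0.67 and 0.38 on the log2 scale in replicates 1 and 2.

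hsa-mir-421 gave 27.1% and 38.3% of the counts of its pair with hsa-mir-374b with siGFP, and 30.8% and 35.9% with siControl. Its share was 28.7% and 29.8% with siERH-3 and 27.6% with siERH-5. The log2 ratio differed by -0.28 (exact permutation test, two-sided p = 0.286, adjusted 0.457), and by -0.01 within replicate 1 and -0.55 within replicate 2. The siERH values lay among the replicate 1 controls and below the replicate 2 controls.

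hsa-mir-374c held 3.12% to 5.29% of the counts it shared with hsa-mir-374b across the 7 HEK293E libraries and 4.04% and 3.86% in K562. The log2 ratio of hsa-mir-374c to hsa-mir-374b differed by -0.19 between siERH and control (exact permutation test, two-sided p = 0.343, adjusted 0.457). The groups overlapped.

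As a background, 105 pairs of neighbouring hairpins on 1 strand within 10 kb had a mean of at least 10 counts in HEK293E. The ratio did not overlap between siERH and control in 34.3% of them, and in 0 of the pairs of hsa-mir-374a with hsa-mir-545 and of hsa-mir-421 with hsa-mir-374b. The median size of the difference over the 105 pairs was 0.42. Sizes were larger than that of hsa-mir-421 and hsa-mir-374b in 66 pairs, and than that of hsa-mir-374a and hsa-mir-545 in 78. The pairs were not filtered for copies of the same miRNA, some of which had a difference of 0, so this background is a rough one.

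**Figure D3:**
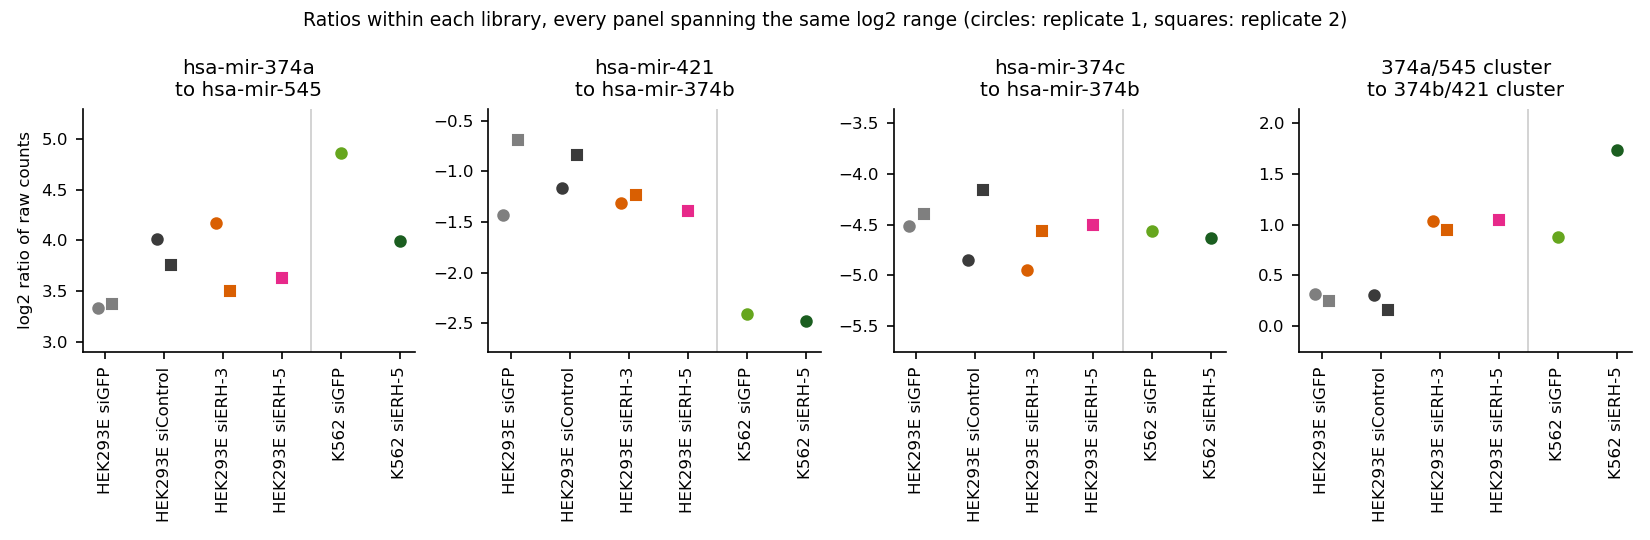
log2 ratio of raw counts within each library (y axis, 4 panels with the same span) by siRNA group, with circles for replicate 1 and squares for replicate 2. In the right panel the HEK293E controls lie between 0.15 and 0.31 and the siERH libraries between 0.95 and 1.05, while the groups overlap in the other 3 panels.

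In K562, with 1 library a group and so no test, the same hairpins were lower. The counts of hsa-mir-374b were 3136 for siGFP and 2192 for siERH-5, or 1323 and 599 CPM, a log2 ratio of -1.14 (95% counting interval -1.22 to -1.07). hsa-mir-421 had 589 and 393 counts, a log2 ratio of -1.20 (-1.40 to -1.02), and hsa-mir-374c had 132 and 88 counts, a log2 ratio of -1.18 (-1.62 to -0.81). These 3 of 5 hairpins were at least 2-fold lower, against 6.81% of 646 hairpins, whose median log2 ratio was 0.11. Scaled by library totals, the 3 were at -0.86, -0.92 and -0.90, so that 0 of 5 were at least 2-fold lower, against 3.56% of hairpins, whose median was 0.37. Intervals cover counting error only, and reads were PCR products.

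hsa-mir-374a went from 6613 to 8082 counts in K562, which on the TMM scale was a log2 ratio of -0.34 (95% counting interval -0.39 to -0.29) and on library totals -0.06. hsa-mir-545 went from 227 to 506 counts, a log2 ratio of 0.52 (0.30 to 0.76). It was the only 1 of the 5 with a higher CPM in siERH-5 than in siGFP. The first cluster gave 1.84-fold the counts of the second with siGFP and 3.32-fold with siERH-5, a log2 difference of 0.86, against 0.76 in HEK293E. Whether the cell lines differ was not tested.

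Within the first cluster, hsa-mir-374a had 29.1 times the counts of hsa-mir-545 in K562 siGFP, above all HEK293E libraries, and 16.0 times in K562 siERH-5, inside their range of 10.1 to 18.1. hsa-mir-421 gave 15.8% of its pair with siGFP (95% Wilson interval 14.7% to 17.0%) and 15.2% with siERH-5 (13.9% to 16.6%), intervals that overlap, and both shares were below those of all 7 HEK293E libraries. With siERH-5, hsa-mir-545 had more counts than hsa-mir-421 (506 against 393), the reverse of their order in the other 8 libraries.

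The level of the locus in K562 relative to HEK293E depended on the scaling. Scaled by library totals, K562 siGFP was below all 4 HEK293E controls for all 5 hairpins, as it was for 67.8% of 790 hairpins, whose median log2 difference was -1.11. With TMM over the 9 libraries that median was -0.18, and K562 siGFP was below all controls for 2 of the 5, against 44.4% of hairpins. These were hsa-mir-421, at a log2 difference of -1.40 (424 against 595 to 1973 CPM), and hsa-mir-545, at -0.90 (163 against 235 to 419 CPM). hsa-mir-374a, hsa-mir-374b and hsa-mir-374c lay within the range of the controls, at 0.34, -0.02 and -0.11.

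The 5 hairpins are rich in A and U, and hairpins of low GC content were more often higher than lower with siERH. Their GC content was 31.9% for hsa-mir-374a, 38.8% for hsa-mir-421, 41.4% for hsa-mir-374c, 41.5% for hsa-mir-545 and 41.7% for hsa-mir-374b, against a median of 51.1% over 772 tested hairpins with an annotated sequence. Over all 773 hairpins tested, 23.8% were higher and 16.2% lower with siERH. Of the 191 hairpins with a GC content up to that of hsa-mir-374b, 96 were higher and 14 lower, with a median log2 fold change of 0.71. This limit was set after the values were seen. The 14 lower ones included hsa-mir-374b, hsa-mir-421 and hsa-mir-374c.

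With a trend on GC content removed, all 5 hairpins were lower, where 19.5% of all hairpins tested were. hsa-mir-374a was then at a log2 fold change of -0.71 (edgeR adjusted p = 0.0214), hsa-mir-545 at -0.66 (0.0329), hsa-mir-374b at -1.21 (0.00212), hsa-mir-421 at -1.64 (0.00262) and hsa-mir-374c at -1.46 (0.00496). hsa-mir-374a and hsa-mir-545 thus passed only in the fits with this trend removed, where they were still the least changed of the 5. What set the GC trend was not tested.

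**Figure D4:**
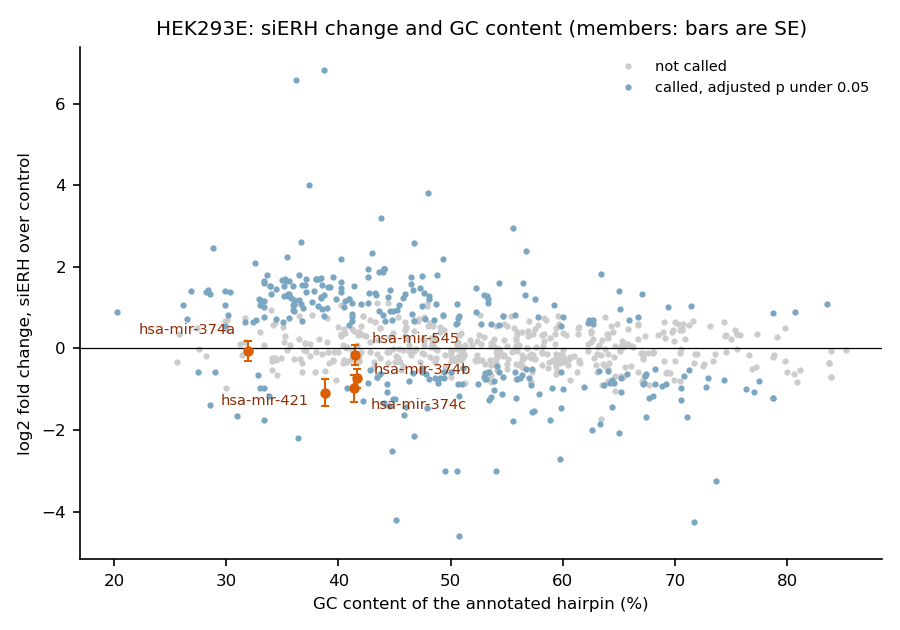
log2 fold change of siERH over control in HEK293E (y axis) against the GC content of the annotated hairpin in percent (x axis) for 772 hairpins, in blue where the edgeR adjusted p was under 0.05, with the 5 hairpins in orange and their SE as bars. hsa-mir-421 (-1.08), hsa-mir-374c (-0.98) and hsa-mir-374b (-0.73) lie below 0 while the 191 hairpins up to their GC content have a median of 0.71, and hsa-mir-374a (-0.06) and hsa-mir-545 (-0.17) lie closer to 0.

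The predicted folding energy of a hairpin reflects how tightly its arms pair. RNAfold gave a minimum free energy of -34.5 kcal/mol for hsa-mir-374a and -40.3 kcal/mol for hsa-mir-374b, the hairpins of 72 bases, and -36.5 for hsa-mir-374c. It gave -35.0 kcal/mol for the 85 bases of hsa-mir-421 and -35.6 for the 106 bases of hsa-mir-545. Per base, hsa-mir-374b was the most stable of the 5 (rank 195 of 772) and hsa-mir-545 the least (rank 712).

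Another set of clustered hairpins on the X chromosome was described for comparison, 24 hairpins of which 22 were tested. Of these, 7 were lower, 0 higher and 15 did not pass, against 16.2% lower and 23.8% higher over all 773 hairpins. The 7 include copies of the same miRNA and hairpins of the same cluster, so they are not independent. The median log2 fold change was -0.29, against -0.01 over all hairpins. With the replicate block 9 were lower and 0 higher, against 20.6% and 28.1% of all hairpins, as hsa-mir-221 (edgeR adjusted p = 0.0200) and hsa-mir-222 (0.0227) then also passed. The largest changes on the log2 scale were -1.22 ± 0.15 for hsa-mir-502 (SE, edgeR adjusted p = 0.000169) and -1.02 ± 0.17 for hsa-mir-532 (SE, edgeR adjusted p = 0.00107), both from a cluster in the introns of CLCN5.

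Over the 9 libraries, hsa-mir-374b ran closely with hsa-mir-374c (Pearson's r of 0.95 on log2 TMM CPM) and hsa-mir-421 (0.85), while hsa-mir-374a and hsa-mir-545 had an r of 0.20. Within the 7 HEK293E libraries these were 0.94, 0.97 and 0.59. These points share libraries, scaling and the 2 cell lines, and are given as a description. hsa-mir-374b and hsa-mir-374c also share most of their arms, and how reads that fit both were counted is not given. Among all hairpins outside the locus, the most alike to hsa-mir-374a were hsa-mir-30c-2 (r = 0.91), hsa-mir-30c-1 (0.91) and hsa-mir-128-2 (0.82). Those most alike to hsa-mir-545 were hsa-mir-6515 (0.96), hsa-mir-361 (0.90) and hsa-mir-424 (0.88). For hsa-mir-374b they were hsa-mir-1260b (0.91), hsa-mir-6857 (0.90) and hsa-mir-148a (0.89), of which hsa-mir-148a (0.93) and hsa-mir-1260b (0.90) were also most alike to hsa-mir-374c, with hsa-mir-29c (0.89). For hsa-mir-421 they were hsa-mir-98, hsa-mir-9-3 and hsa-mir-9-1 (each 0.92).

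The RefSeq table has no entry for hsa-miR-374a-5p, whose seed was therefore not compared. Of the mature miRNAs it holds, only hsa-miR-655-3p shared a seed with one of the arms above, UAAUACA of hsa-miR-374c-5p. Its hairpin hsa-mir-655 had 0 counts in each of the 4 HEK293E control libraries, which allows up to 3 counts in a library. It had 3, 3 and 4 counts in the siERH libraries of HEK293E and 13 and 25 in K562 siGFP and siERH-5, and was too low to be tested.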

How the data were processed

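Small RNA of HEK293E and K562 cells was sequenced in 9 libraries from gel-purified fragments of mature miRNA size, per the labels' protocols. The authors deposited raw counts per miRNA hairpin, with blank cells read here as 0, and a table of RPM values. Recomputed from the deposited counts, RPM was the count plus 1 over the library total plus 1485, per 1e+06 (largest relative deviation 1.1e-09). cutadapt, Bowtie2, bedtools and the build hg38 are named in the submitters' processing notes. Versions, the miRNA annotation and the treatment of reads that fit several hairpins are not given in the sources used here.

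Libraries were grouped by their titles. The hairpins tested had a mean of 10 counts or more. They were tested with edgeR 4.0.16 (R 4.3.3), TMM scaling and the quasi-likelihood test with Benjamini-Hochberg adjustment over all hairpins, without a block. The SE is the log2 fold change over the square root of F. The 5 hairpins, the lists and the tests were chosen with earlier results of these data known. Hairpins named outside the locus follow a rule: those with a shared seed, the 3 most alike to each hairpin by r, and the 2 largest called changes in each direction of the X chromosome list. Replicate numbers were taken as pairing libraries, because the labels give them as experimental groups and the differences between replicates correlated between siRNAs (r = 0.692, 0.480 and 0.519 over 773 hairpins). Ratios used raw counts plus 0.5 and a two-sided exact permutation test. K562 log2 ratios used TMM CPM plus 1, with exact intervals on counts, and shares have 95% Wilson intervals. The GC trend was a loess fit per library with a span of 0.5 on hairpin GC content from GENCODE 29, which matched 1480 of 1485 hairpins by name. Its build, GRCh38, is hg38. Data with 773 hairpins were simulated for the siERH comparison in HEK293E. The test called 149 of 200 hairpins changed 2-fold (74.5%), 0 with the wrong sign. It also called 6 unchanged hairpins there, and 0 hairpins when nothing changed. The simulated data had no difference between replicates shared by siRNAs, so they do not cover that feature of the libraries. Alternatives used DESeq2 1.42.0 and limma 3.58.1. Other tools were RNAfold 2.7.2, scipy 1.17.1, pandas 2.3.3, numpy 2.4.6 and matplotlib 3.10.9 under Python 3.11.15.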

Additional observations from a re-analysis of the deposited data

Results flagged for a closer look

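The values of hsa-mir-545 lay on opposite sides of control in the cell lines, although in HEK293E it did not pass the test (-0.17 ± 0.24 on the log2 scale, SE, edgeR adjusted p = 0.612). Scaled by library totals its HEK293E value was 0.038, and with limma on RPM 0.043 and 0.042, so the sign there turned with the scaling. On the TMM scale each of the 3 HEK293E siERH libraries was below the mean of its own replicate's controls, at log2 ratios of -0.12, -0.23 and -0.43, while the K562 siERH-5 library was above siGFP at 0.524. K562 has 1 library per group, and whether the lines differ was not tested. No control set of 4 values held a library far from the others among the 9 sets examined, where chance gives about 1 in 20.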

How the results depend on the processing

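The 3 called hairpins were lower than control under all 19 alternatives. hsa-mir-421 passed the threshold under 13 of them (adjusted p by edgeR, DESeq2 or limma = 9.85e-05 to 0.118), hsa-mir-374b under 11 (0.000294 to 0.167) and hsa-mir-374c under 9 (0.000270 to 0.136). The number of lower hairpins among the 5, 3 with TMM, was 1 on library totals, 0 with limma on log2(RPM + 1) or log2(RPM + 10), 0 against siGFP alone, 5 after removal of the GC trend, with and without the replicate block, and 0 to 3 when 1 library was left out.

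hsa-mir-374b was at -0.52 on library totals, -0.49 and -0.48 with limma, -0.39 against siGFP alone and -0.89 to -0.50 with 1 library left out. hsa-mir-421 was at -0.77 and -0.76 with limma, -0.74 against siGFP alone and -1.32 to -0.77 with 1 library left out. hsa-mir-374c was at -0.76 on library totals, -0.89 with a mean of at least 100 counts, -0.67 and -0.62 with limma, -0.61 against siGFP alone and -1.16 to -0.58 with 1 library left out. hsa-mir-374a was at 0.16 on library totals, 0.020 with a mean of at least 100 counts, 0.19 and 0.19 with limma, 0.27 against siGFP alone, -0.71 without the GC trend, -0.72 with the block as well and -0.23 to 0.16 with 1 library left out. hsa-mir-545 was at 0.038 on library totals, 0.043 and 0.042 with limma, -0.66 without the GC trend, -0.73 with the block as well and -0.30 to 0.0092 with 1 library left out. With the replicate block alone the 5 were at -0.07 (hsa-mir-374a), -0.24 (hsa-mir-545), -0.75 (hsa-mir-374b), -1.08 (hsa-mir-421) and -1.03 (hsa-mir-374c), with no change of call.

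Over all hairpins, 125 lower and 184 higher became 67 and 212 on library totals, 58 and 218 or 59 and 206 with limma, 151 and 124 without the GC trend, 187 and 170 with the block as well, 63 and 82 with a mean of at least 100 counts, 99 and 182 within replicate 2, and 76 to 130 and 136 to 189 with 1 library left out. Between siControl and siGFP the block gave 61 lower and 72 higher in place of 0, and among the 5 it made 4 higher in place of 0, at 0.63, 0.62, 0.68 and 0.59 for hsa-mir-374a, hsa-mir-374b, hsa-mir-421 and hsa-mir-374c. With 1 control left out, a lone library was assumed to vary like the others. The changes then ranged from 0.33 to 0.95, 0.31 to 0.89, 0.10 to 1.33 and -0.086 to 1.18 for the same 4, and from -0.32 to 0.45 for hsa-mir-545, which was at -0.0028 on library totals.

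The cluster ratio differed by 0.77 with the replicate block (exact permutation p = 0.0556, the smallest of 18 splits), 0.73 against siGFP alone and 0.78 against siControl alone (exact permutation p = 0.1, the smallest these allow) and 0.73 to 0.79 with 1 library left out. Here fewer splits set the larger p. The ratio of hsa-mir-374a to hsa-mir-545 differed by -0.12 against siControl alone, 0.50 within replicate 1, -0.0050 within replicate 2 and -0.057 to 0.28 with 1 library left out. In K562, library totals gave -0.056 (hsa-mir-374a), 0.80 (hsa-mir-545), -0.86 (hsa-mir-374b), -0.92 (hsa-mir-421) and -0.90 (hsa-mir-374c), and RPM gave -0.055, 0.81, -0.86, -0.93 and -0.92. The K562 to HEK293E difference on library totals was -0.73 (hsa-mir-374a), -1.96 (hsa-mir-545), -1.09 (hsa-mir-374b), -2.47 (hsa-mir-421) and -1.17 (hsa-mir-374c), and between siERH libraries -0.32 (hsa-mir-545) and -0.58 (hsa-mir-374b). The cause of the other differences was not tested. Depth limits hsa-mir-374c most, with 88 to 606 counts a library.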
